A study of Mus musculus with 11 samples.

Results

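A set of 10 genes around the cell-cycle inhibitor p21 were followed in the liver RNA-seq libraries: Cdkn1a, which encodes p21, Mdm2, Ccng1, Trp53inp1, Gadd45a, Gadd45b, Gadd45g, Wee1, Ccnd1 and Mad2l2. They were matched by symbol in a table of 36788 genes, and all 10 were found and had a mean above 0.5 CPM (the reads of a gene per 1000000 reads of its library), as did 12733 genes in all. The 10 genes were chosen by name with the difference between the FSH and saline livers already known, so their values in that comparison, and the side of the threshold on which each falls in the fit over all genes, are given as a description that supports nothing.

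The libraries came from 11 wild-type C57BL/6 female mice older than 12 weeks, all of them ovariectomized (OVX) and fed a high-fat diet. Of these, 5 mice received follicle-stimulating hormone (FSH, numbers 1, 2, 3, 4 and 6) and 6 received saline (numbers 1 to 6). FSH was injected daily at 30 IU per kg from 1 week after surgery. Removal of the ovaries leaves mice without ovarian steroids in both groups, and no mice with ovaries were analysed here. The labels state that whole liver was digested with papain before RNA extraction. Each library is 1 liver, and no batch or collection time is given in the labels.

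The tumor suppressor p53 activates Cdkn1a after DNA damage, and p21 then inhibits cyclin-dependent kinases (CDKs) and holds the cell before S phase. Mdm2, Ccng1, Trp53inp1 and Gadd45a are other well-known p53 targets, whereas Gadd45b and Gadd45g respond mainly to cytokine and stress signals. In liver, where most hepatocytes of an adult animal do not divide, Cdkn1a is also regulated without p53, by hormonal, nutritional and circadian inputs.

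Sequencing depth was 11410596 to 19909327 reads per library in the FSH group and 10801891 to 16077442 in the saline group. At these depths a gene with 0 reads may reach 0.151 to 0.278 CPM, which covers counting error only. Cdkn1a was counted by 53 to 130 reads in the FSH livers and 469 to 2570 in the saline livers, and Wee1, the gene of the set with the lowest mean CPM in saline, by 28 to 99 and 10 to 69 reads. Over all genes, 1350 of 12733 (10.6%) differed between the groups at a limma adjusted p under 0.05, 788 of them higher (6.19%) and 562 lower (4.41%) with FSH. Both thresholds of the study, which also ask for a log2 fold change beyond 1 in size, were met by 233 genes (1.83%), and the ranges of the groups did not overlap in 849 genes (6.67%).

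Promoter sequences from RefSeq (GRCm38.p6, 250 bases before to 50 after a transcript start) were matched by symbol to 7 of the 10 genes, in 9 windows; Trp53inp1, Wee1 and Ccnd1 had no entry. The Cdkn1a promoter is shown because the gene is the center of the set, and those of Gadd45b and Gadd45g because they held the E-box CACGTG, a choice made after the matches were seen. The 250 bases before the start are printed 5′ to 3′ on the plus strand, with matches in capitals. These are chr17:29090729-29090978 for Cdkn1a (the p53 motif), chr10:80929841-80930090 for Gadd45b (E-box) and chr13:51846425-51846674 for Gadd45g (E-box).
Cdkn1a: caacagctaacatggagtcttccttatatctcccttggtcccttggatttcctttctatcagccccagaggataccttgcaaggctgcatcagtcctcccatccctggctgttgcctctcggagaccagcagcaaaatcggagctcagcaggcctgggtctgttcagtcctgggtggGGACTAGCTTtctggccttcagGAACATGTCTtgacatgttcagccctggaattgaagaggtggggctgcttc
Gadd45b: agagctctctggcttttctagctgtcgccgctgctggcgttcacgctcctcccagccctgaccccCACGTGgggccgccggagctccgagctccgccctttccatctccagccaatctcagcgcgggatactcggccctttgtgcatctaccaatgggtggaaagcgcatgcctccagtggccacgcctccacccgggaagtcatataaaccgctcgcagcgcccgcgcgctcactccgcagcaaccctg
Gadd45g: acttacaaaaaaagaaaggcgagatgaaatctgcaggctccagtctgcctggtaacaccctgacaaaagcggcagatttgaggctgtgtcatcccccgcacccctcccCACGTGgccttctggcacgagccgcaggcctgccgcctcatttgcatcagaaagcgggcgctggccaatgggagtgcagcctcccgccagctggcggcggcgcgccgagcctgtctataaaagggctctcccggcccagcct

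The p53 motif searched is the 10-base unit of which a full p53 site holds a pair. In the Cdkn1a window it was matched 2 times, with first bases at positions -73 and -51 from the transcript start. These 2 matches are not directly joined, whereas 3 of 32851 windows held 2 joined units. This unit occurred in 8.36% of 32851 promoter windows of 300 bases when both strands were searched, and Gadd45a, Mdm2 and Ccng1 each held 1. The other Cdkn1a window, at a start further downstream, held none. The E-box CACGTG lay at position -185 in Gadd45b and -142 in Gadd45g, and 7.15% of all windows held it. The GC box GGGCGG was present in 35.7% of windows and the ROR and REV-ERB motif AGGTCA in 16.3%, the latter in none of the 9 windows of the set. The Gadd45b window held a GC box and the Gadd45g window did not.

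Cdkn1a had the largest difference of the set. Its level was 2.66, 4.204, 4.08, 6.33 and 11.4 CPM in FSH livers 1, 2, 3, 4 and 6, and 43.4 (lowest), 103 (median) and 187 CPM (highest) in the saline livers. Every FSH liver was below every saline liver, and the highest FSH value, in liver 6, remained under the lowest saline value, in liver 5. The means were 5.73 ± 3.42 (SD, n = 5) and 109 ± 59.5 CPM (SD, n = 6), a ratio of 19.0. On the scale of log2(CPM + 0.5) the difference was -4.09 ± 0.39 (SE, 95% interval -4.91 to -3.26). The saline livers themselves fell apart into 3 above 100 CPM (livers 1, 2 and 4) and 3 below 70 CPM (livers 3, 5 and 6).

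Mdm2, the ubiquitin ligase that p53 induces and that in turn degrades p53, did not separate the groups. It stood at 13.1, 20.1, 15.5, 14.5 and 10.95 CPM in FSH livers 1, 2, 3, 4 and 6, against 13.1, 15.01 and 17.97 CPM as lowest, median and highest in saline. Each saline value lay inside the FSH range. The log2 difference was -0.08 ± 0.14 (SE), and its 95% interval, -0.37 to 0.22, leaves room for a moderate change in either direction.

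Ccng1 encodes cyclin G1, another direct p53 target. Its levels were 27.4, 28.4, 28.5, 24.996 and 24.01 CPM in FSH livers 1, 2, 3, 4 and 6 and spanned 22.1 to 37.8 CPM with a median of 28.3 in saline. The FSH values all fell within the saline range, with a log2 difference of -0.06 ± 0.13 (SE, 95% interval -0.33 to 0.21).

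Trp53inp1, a p53-induced protein of the nucleus and of autophagy, was lower with FSH. FSH livers 1, 2, 3, 4 and 6 had 39.98, 49.9, 56.2, 62.9 and 60.1 CPM, and the saline livers 66.5 (lowest), 84.4 (median) and 148 CPM (highest). The groups did not overlap, although FSH liver 4 and saline liver 5 were close. The log2 difference was -0.81 ± 0.19 (SE, 95% interval -1.22 to -0.41).

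**Figure D1:**
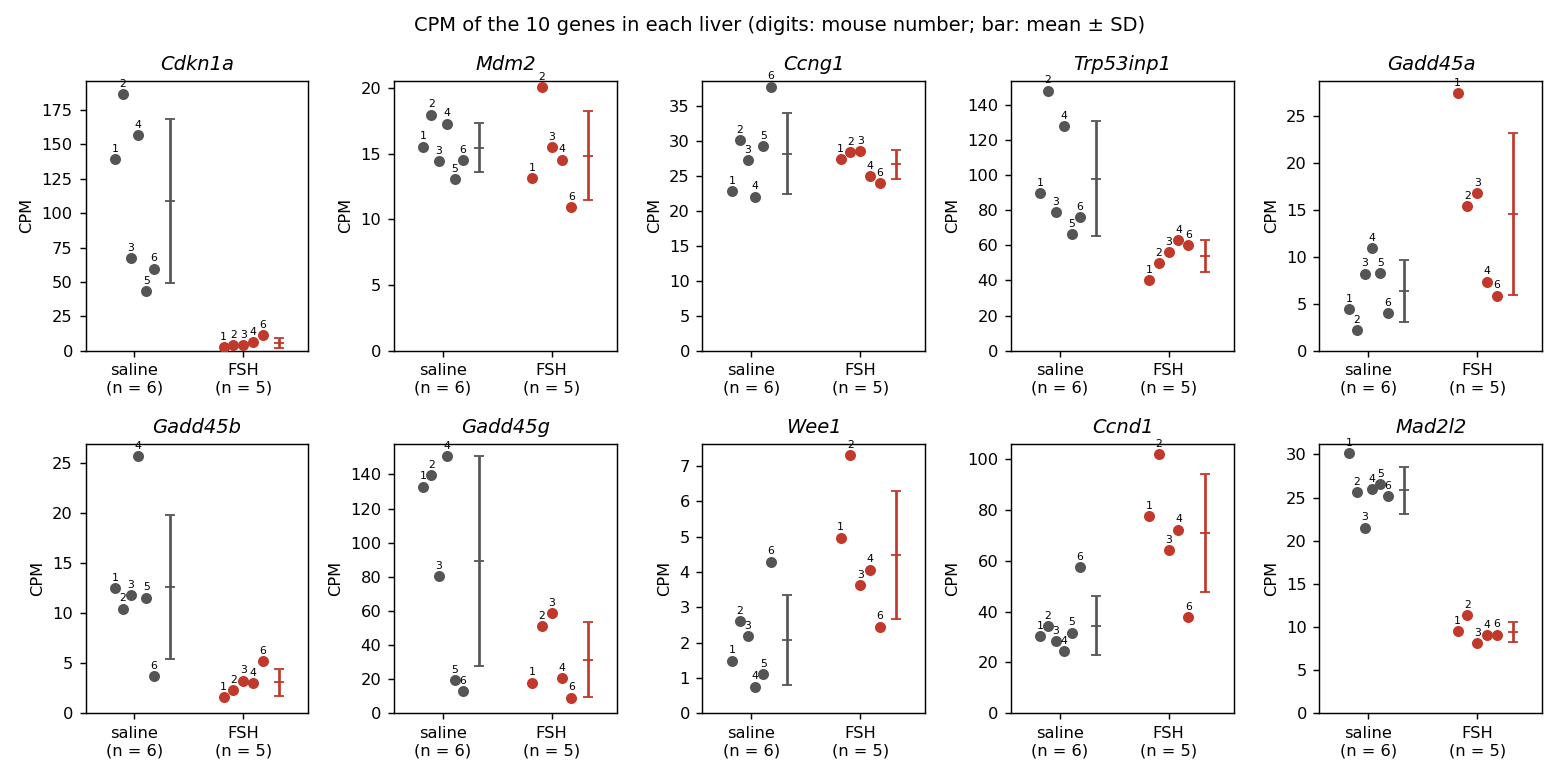
CPM (linear axes from 0) of the 10 genes in each liver, saline in grey (n = 6) and FSH in red (n = 5), with the mouse number at each point and the mean ± SD as a bar. Cdkn1a, Trp53inp1 and Mad2l2 show no overlap of the groups, whereas saline liver 6 lies among the FSH livers for Gadd45b, Wee1 and Ccnd1.

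The GADD45 proteins bind p38 and JNK pathway kinases, PCNA and CDK1, and the differences of the 3 genes were of both signs. Gadd45b, the member best known for its response to TGF-beta and NF-kappaB, was 1.61, 2.36, 3.28, 3.04 and 5.26 CPM in FSH livers 1, 2, 3, 4 and 6. In saline it was 3.73 (lowest), 11.7 (median) and 25.7 CPM (highest). Saline liver 6 lay inside the FSH range and the other saline livers above it. The log2 difference was -1.76 ± 0.35 (SE, 95% interval -2.51 to -1.003) and was -2.05 without saline liver 6.

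Gadd45g had the widest interval of the set. FSH livers 1, 2, 3, 4 and 6 had 18.1, 51.2, 58.8, 20.5 and 9.29 CPM, and the saline livers 13.2 (lowest), 107 (median) and 151 CPM (highest). Saline livers 5 and 6 lay within the FSH range, while livers 1, 2, 3 and 4 were above it. The log2 difference of -1.28 ± 0.64 (SE) had a 95% interval from -2.66 to 0.09 and did not pass the threshold. It ranged from -1.72 without saline liver 6 to -0.93 without FSH liver 6.

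Gadd45a, the family member most tied to p53, had a positive difference. Its values were 27.5, 15.4, 16.8, 7.36 and 5.87 CPM in FSH livers 1, 2, 3, 4 and 6, and 2.18, 6.31 and 10.96 CPM as lowest, median and highest in saline. FSH livers 1, 2 and 3 were above all saline livers, and FSH livers 4 and 6 were among them. The log2 difference was 1.10 ± 0.40 (SE, 95% interval 0.25 to 1.96). It was not past the threshold, which it passed only without FSH liver 6 (1.36), and it fell to 0.83 without FSH liver 1. The antisense transcript E230016M11Rik, which overlaps Gadd45a, averaged 0.725 ± 0.243 (5 FSH livers) and 0.341 ± 0.171 CPM (6 saline livers, SD).

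Among the genes that act directly on the cell cycle, Ccnd1 and Wee1 had positive differences. Ccnd1 encodes cyclin D1, which activates CDK4 and CDK6 in G1. It was at 77.6, 101.9, 64.1, 72.2 and 37.9 CPM in FSH livers 1, 2, 3, 4 and 6 and at 24.5 (lowest), 31.1 (median) and 57.4 CPM (highest) in saline. The highest saline value, in liver 6, was above FSH liver 6, so the ranges overlapped by these 2 livers. The log2 difference was 1.01 ± 0.23 (SE, 95% interval 0.52 to 1.50) and was 1.17 without saline liver 6. LTO1, a gene that overlaps Ccnd1 on the opposite strand, averaged 25.7 CPM with FSH and 18.5 CPM with saline (log2 difference 0.44, limma adjusted p = 0.147).

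Wee1, the kinase that keeps CDK1 inactive before mitosis, is also a textbook output of the circadian clock. It stood at 4.97, 7.30, 3.62, 4.07 and 2.45 CPM in FSH livers 1, 2, 3, 4 and 6 and at 0.761, 1.84 and 4.29 CPM as lowest, median and highest in saline. FSH livers 1 and 2 were above all saline livers, FSH livers 3, 4 and 6 were below saline liver 6, and saline livers 2 and 6 were inside the FSH range. The log2 difference was 1.02 ± 0.31 (SE, 95% interval 0.35 to 1.69), just outside the threshold. It passed without saline liver 6 (1.23), without saline liver 2 (1.10) or without FSH liver 6 (1.19).

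Mad2l2 encodes MAD2L2 (REV7), a subunit of DNA polymerase zeta and of the shieldin complex, which directs double-strand break repair. Its values were 9.54, 11.4, 8.16, 9.04 and 9.11 CPM in FSH livers 1, 2, 3, 4 and 6 and 21.5 (lowest), 25.8 (median) and 30.1 CPM (highest) in saline. The groups were far apart with little spread in either, and the log2 difference was -1.41 ± 0.11 (SE, 95% interval -1.63 to -1.18). Draxin, the gene on the opposite strand at this locus, had at most 3 reads in any library.

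**Figure D2:**
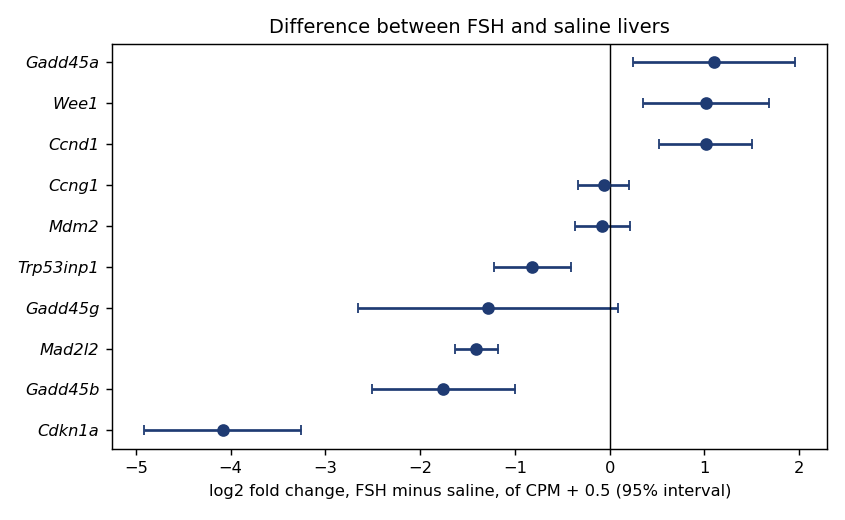
Log2 fold change of each gene (FSH minus saline, on CPM + 0.5, horizontal axis) with its 95% interval from limma, 5 FSH against 6 saline livers. Cdkn1a is lowest at -4.09, the intervals of Mdm2, Ccng1 and Gadd45g include 0, and Gadd45a, Wee1 and Ccnd1 lie near 1.

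Counted over the set, 5 of the 10 genes were past the adjusted p threshold, 4 lower (Cdkn1a, Mad2l2, Gadd45b and Trp53inp1) and 1 higher (Ccnd1). The shares over all genes were 10.6%, 4.41% and 6.19%, and because the genes were selected on this contrast nothing is read from the difference. Both thresholds of the study were met by 4 of the 10 (1.83% of all genes) and 3 had no overlap between groups (6.67% of all genes). The median log2 difference of the 10 genes was -0.45, beside 0.02 for all genes. The gene just inside the threshold was Trp53inp1 (limma adjusted p 0.0134) and the gene just outside was Wee1 (limma adjusted p 0.0505).

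The order of the genes was also compared per length, as CPM per kilobase of annotated exon (GENCODE M21). In saline livers Gadd45g was highest at 76.2 ± 52.4 CPM per kb (SD, n = 6), followed by Cdkn1a at 30.7 ± 16.8 and Trp53inp1 at 15.1 ± 5.03. Each neighbor in this order overlapped the next in range except Mdm2 (3.04 ± 0.367) over Wee1 (0.608 ± 0.375), the last. In FSH livers Gadd45g was again first, at 26.9 ± 18.7 CPM per kb (SD, n = 5), and Ccnd1 second at 15.02 ± 4.91. Cdkn1a ranked 9 of 10 there, at 1.61 ± 0.964 CPM per kb, and its range overlapped those of Gadd45b (1.96 ± 0.860) and Wee1 (1.31 ± 0.532). The only neighbors in the FSH order without overlap were Ccng1 (7.60 ± 0.586) and Mad2l2 (3.60 ± 0.451).

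Individual livers were not evenly placed between the groups. FSH liver 6 was the FSH liver nearest to the saline mean for 5 of the 10 genes, namely Cdkn1a, Gadd45a, Gadd45b, Wee1 and Ccnd1. The same liver was nearest for 51.6% of the 1350 genes that differed between the groups, and the other FSH livers for 6.44% to 19.3%. On the saline side, liver 6 was nearest to the FSH mean for 4 of the 10 genes (Mdm2, Gadd45b, Wee1 and Ccnd1) and liver 5 for 3 (Cdkn1a, Trp53inp1 and Gadd45g). Over the 1350 genes these shares were 15.9% and 20.6%, within the range of 12.7% to 20.6% over the 6 saline livers. Without FSH liver 6 the log2 difference of Cdkn1a was -4.36 and that of Ccnd1 1.22.

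The question whether p53 targets move with Cdkn1a from liver to liver was asked within the 6 saline livers, which leaves out the contrast by which the genes were chosen. Mdm2 followed Cdkn1a with Pearson r = 0.956 (exact permutation p = 0.00556, adjusted over 9 relations 0.025) and Spearman rho = 0.943 (exact p = 0.0167, adjusted 0.075). Trp53inp1 had r = 0.922 (exact permutation p = 0.00278, the smallest that 6 livers can give, adjusted 0.025), and its rank order was identical to that of Cdkn1a (rho = 1.0, adjusted exact p = 0.025). So the livers high in Cdkn1a were also those high in Mdm2 and Trp53inp1. The span of Mdm2 was nevertheless narrow, from 13.1 to 17.97 CPM, while Cdkn1a spanned 43.4 to 187 CPM.

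Gadd45g ran with Cdkn1a at r = 0.872 (exact permutation p = 0.025, adjusted 0.075) and rho = 0.886 (exact p = 0.0333, adjusted 0.1), which did not pass after adjustment. Ccng1, in contrast, had r = -0.527 and rho = -0.314 (adjusted exact permutation p = 0.637 and 0.846). For Gadd45a, Gadd45b, Wee1, Ccnd1 and Mad2l2 r was -0.359, 0.476, -0.183, -0.374 and 0.338, with adjusted exact permutation p from 0.637 to 0.722, and rho between -0.257 and 0.314. Without livers 2 and 5, the 2 farthest from the median of Cdkn1a, r over the 4 left was 0.895 for Mdm2, 0.847 for Trp53inp1 and 0.818 for Gadd45g. Over the same 4 livers it was as large in size for genes with a smaller r over all 6, at -0.910 for Wee1, -0.891 for Ccng1 and 0.811 for Gadd45b, and was -0.692 for Ccnd1, 0.679 for Mad2l2 and 0.365 for Gadd45a. With 5 livers the smallest exact p is 0.0167, which passes adjustment only where at least 4 of the 9 relations reach it, and no relation passed when any 1 saline liver was left out. The correlation of Mdm2 then was between 0.925 and 0.994 and that of Trp53inp1 between 0.892 and 0.996.

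Relations were tested only in the saline group, with 4 or 5 of its livers used to check them, and the 5 FSH livers were not tested, so whether Mdm2 follows Cdkn1a there was not tested. FSH liver 6, with the most Cdkn1a of its group (11.4 CPM), had the least Mdm2 (10.95 CPM), and FSH liver 2, at 4.204 CPM of Cdkn1a, had the most Mdm2 (20.1 CPM). Trp53inp1 was lowest in FSH liver 1, as was Cdkn1a, and was highest in liver 4.

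**Figure D3:**
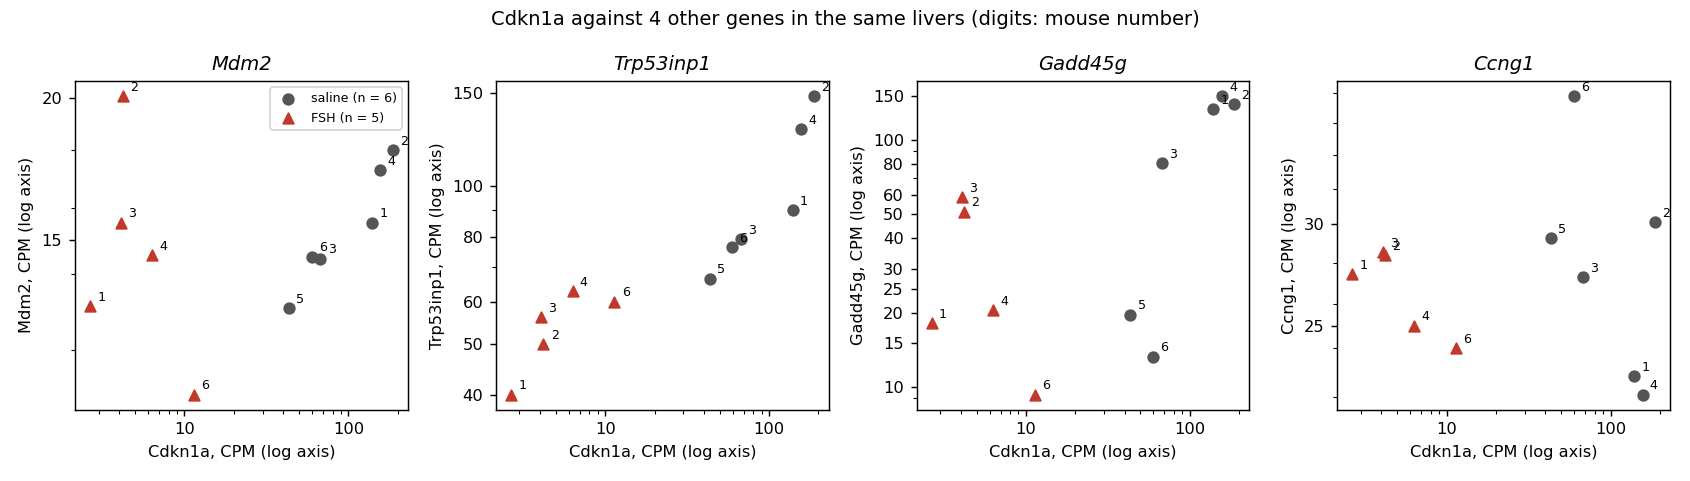
CPM of Cdkn1a (horizontal, log axis) against CPM of Mdm2, Trp53inp1, Gadd45g and Ccng1 (vertical, log axes that do not start at 0) in the same livers, saline as grey circles (n = 6) and FSH as red triangles (n = 5), with mouse numbers. Within saline, Mdm2 (r = 0.956) and Trp53inp1 (r = 0.922) rise with Cdkn1a, whereas the FSH and saline livers overlap in Mdm2.

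Across all 12732 other genes tested, likeness to Cdkn1a was measured as Pearson r over the 11 livers after each group's mean was taken off, as a description. The genes most like it were AA986860 (0.970), the lipid droplet protein gene Plin5 (0.957), Gimap5 (0.957), the phosphatidate phosphatase gene Lpin1 (0.954) and Zbtb40 (0.953). The most opposite were Id2 (-0.958), Ugdh (-0.956) and Lpar6 (-0.940). In all, 43 genes were beyond 0.9 in size. Among the genes of the set Trp53inp1 was closest, at 0.873 (rank 49), and Mdm2 was at 0.139 and Ccng1 at -0.566. Of the 5 most like Cdkn1a, Plin5 was lower with FSH, 43.1 against 138 CPM on average (log2 difference -1.57, limma adjusted p = 0.00747). The other 4 did not pass, with log2 differences of -0.83 for AA986860, -0.19 for Gimap5, -0.93 for Lpin1 and -0.30 for Zbtb40 and limma adjusted p from 0.0792 to 0.521.

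A wider list of 45 other known p53 targets was then read from the same fit. It was written, like every list here, with earlier results of these data known. Of 37 tested, 7 were called lower and 1 higher with FSH, 21.6% in all, and the shares of all genes called were 4.41% lower, 6.19% higher and 10.6% in all. Called or not, 20 had a negative and 17 a positive difference, with a median of -0.02. The 8 not tested were low in every library, at most 0.646 CPM. The lower ones included Gdf15, a stress-induced cytokine, which was 8.26 to 39.4 CPM with FSH and 29.5 to 294 CPM with saline (log2 difference -2.29 ± 0.53 SE, limma adjusted p = 0.0122). Ccng2 (cyclin G2), which FOXO factors also induce, was 13.3 to 15.6 CPM with FSH and 30.3 to 54.3 CPM with saline, without overlap (-1.40 ± 0.13 SE, limma adjusted p = 1.38e-05). Cdip1 (-0.67) and Ei24 (-0.47), both linked to cell death, were lower as well, with limma adjusted p of 0.0056 and 0.013.

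Other calls of this list were less stable when 1 liver was left out. The antiproliferative gene Btg2 (-1.44, limma adjusted p = 0.0267) lost its call in 5 of 11 such fits (FSH 1, 3, 4 or 6, or saline 3, left out), with an adjusted p up to 0.0586. Bcl2l1, whose main product BCL-XL protects cells from apoptosis, was at -0.72 (limma adjusted p = 0.0257) and lost it in 4 (FSH 1, 3 or 4, or saline 4), with an adjusted p up to 0.0693. The ferrireductase gene Steap3 (-0.38, limma adjusted p = 0.027) lost it in 6 (any of FSH 1 to 4, or saline 3 or 6), with an adjusted p up to 0.0729. The only higher one, the ferredoxin reductase gene Fdxr (0.39, limma adjusted p = 0.033), lost it in 7 (FSH 1, 2 or 4, or saline 2, 3, 5 or 6), with an adjusted p up to 0.0948, and also under 5 of 8 other settings (no filter 0.0506, TMM scaling 0.0549, median-of-ratios scaling 0.0576, a replicate block 0.0514, and 0.0614 by edgeR). The count over the list was 4 without FSH liver 1 or FSH liver 4, and 5 without FSH liver 3 or saline liver 3.

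A group of 8 classical targets of p53 were picked from this list after their values were seen, because they are often used as readouts of its activity. They are the apoptosis genes Bax, Bbc3, Pmaip1, Aen and Pidd1 together with Zmat3, Phlda3 and Sesn1. None of the genes called from this list, such as Gdf15 and Btg2, is among them. Eda2r was picked with them but had a mean under 0.5 CPM. Because of that choice their values are a description only. Their log2 differences ran from -0.18 for Aen to 0.26 for Pmaip1. Bax averaged 21.1 ± 2.60 CPM in the 5 FSH livers and 24.2 ± 4.59 CPM in the 6 saline livers (SD). Zmat3 was 5.03 ± 1.00 and 4.87 ± 0.601 CPM. The 95% intervals of the 8 differences lay between -0.46 and 0.78.

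Trp53, the gene of p53 itself, averaged 15.5 ± 1.74 CPM in the 5 FSH livers and 15.5 ± 3.76 CPM in the 6 saline livers (SD), a log2 difference of 0.02 (95% interval -0.29 to 0.33, limma adjusted p = 0.95). Of 15 tested genes for p53 and its regulators 1 was called (6.67%, beside 10.6% of all genes), the damage kinase gene Atr, at 7.49 against 5.25 CPM (0.49, limma adjusted p = 0.0254). Its call was lost without FSH liver 1 (limma adjusted p 0.0676), FSH liver 2 (0.0611) or FSH liver 3 (0.0652). These RNA levels do not measure p53 protein or its activity.

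Of 7 other CDK inhibitors listed, 4 were tested and 1 of these 4 was called (beside 10.6% of all genes). This was Cdkn2c (p18), which was higher with FSH at 8.97 ± 1.48 against 6.41 ± 1.10 CPM (log2 difference 0.46, limma adjusted p = 0.0415). The call was lost in 8 of 11 fits that left out 1 liver (any of FSH 1 to 4 or saline 1 to 4), with an adjusted p up to 0.128. Cdkn2a, Cdkn2b and Cdkn3 were at most 0.664 CPM in any library.

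None of 20 tested cyclins, CDKs, RB and E2F genes of the G1/S step was called by limma, and edgeR called 1, Ccnd2. An unadjusted limma p under 0.05 was found for 4 of the 20, beside 3196 of all 12733 genes. The smallest p belonged to Ccnd2 (cyclin D2, log2 difference 0.48, limma adjusted p = 0.0564), E2f8 (-0.46, limma adjusted p = 0.123) and Tfdp2 (0.34, limma adjusted p = 0.141). Ccnd2 passed without saline liver 1 (limma adjusted p 0.04), with TMM (0.0489) or median-of-ratios scaling (0.0487), and by edgeR (0.0493), and E2f8 passed without FSH liver 2 (log2 difference -0.62, limma adjusted p 0.0239). Among 19 tested S and G2/M proliferation genes 3 were called (15.8%, beside 10.6% of all genes), all higher with FSH (6.19% of all genes), with a list median of 0.27. They were the replication helicase genes Mcm3 (4.81 against 3.14 CPM, 0.56, limma adjusted p = 0.0328) and Mcm6 (6.18 against 3.30 CPM, 0.73, limma adjusted p = 0.0492), and the sliding clamp gene Pcna (38.9 against 30.1 CPM, 0.36, limma adjusted p = 0.0468). These calls were fragile, lost in 8, 10 and 9 of 11 fits without 1 liver. The mitotic genes Ccnb1, Plk1, Aurkb, Bub1, Cdc20 and Foxm1 were under 0.7 CPM in all 11 livers and were not tested.

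Of 12 partners of MAD2L2 in polymerase zeta, shieldin and the spindle checkpoint, 1 was called (8.33%, beside 10.6% of all genes). This was Shld2, a shieldin subunit, at 22.1 ± 2.69 CPM in the 5 FSH livers and 36.7 ± 8.09 CPM in the 6 saline livers (SD; -0.69 ± 0.15 SE, limma adjusted p = 0.00834). The list count was 4 without FSH liver 6 and 2 without saline liver 1. Of 11 GADD45 partners and stress kinases 2 were called, both higher (18.2%, beside 10.6% of all genes called and 6.19% called higher). Map2k3, the kinase that activates p38, was 64.5 to 79.3 CPM with FSH and 47.0 to 55.5 CPM with saline, without overlap (0.50 ± 0.08 SE, limma adjusted p = 0.0015), and the other was Pcna.

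**Figure D4:**
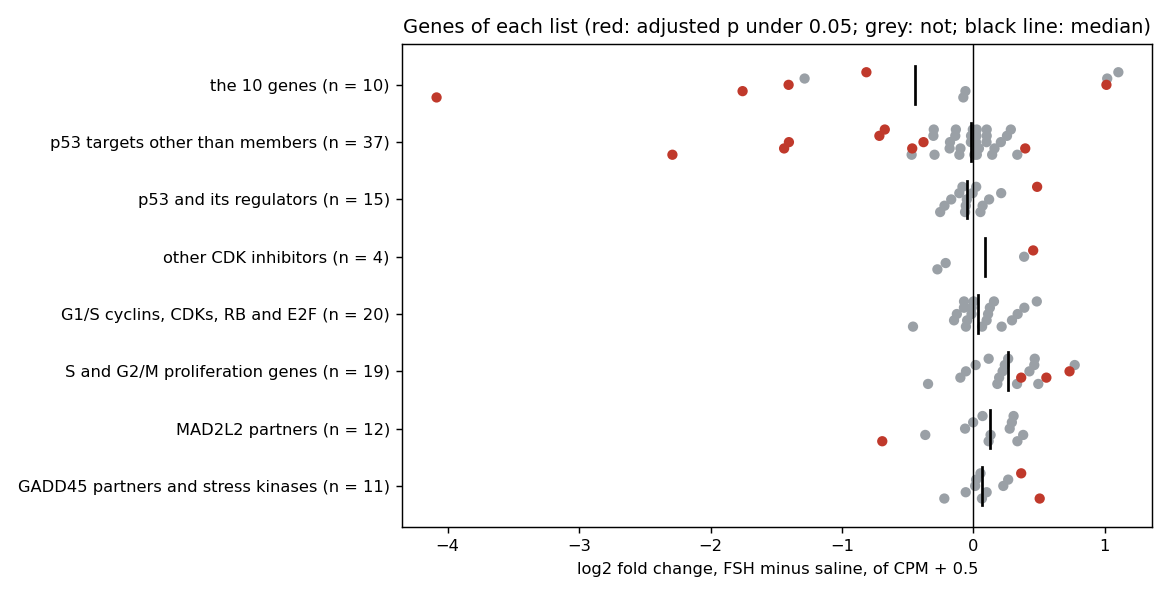
Log2 fold change (FSH minus saline, on CPM + 0.5, horizontal axis) of every tested gene in the lists of p53, cell-cycle, MAD2L2 and GADD45 genes (clock and glucocorticoid lists not drawn), red where the limma adjusted p was under 0.05 and grey where not, with the list median as a black line. Cdkn1a at -4.09 lies apart from the other genes drawn, and the 37 other p53 targets center near 0 (median -0.02) with 7 called genes on the lower side.

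Clock and glucocorticoid signals, known to act on Cdkn1a or Wee1, were read from their own genes in the same livers. Of 16 clock genes 12 were called (75.0%, beside 10.6% of all genes), 6 in each direction, among them Dbp at 42.6 to 121 CPM with FSH and 3.40 to 4.95 CPM with saline (log2 difference 4.02, limma adjusted p = 1.15e-07). Nr1d1, which encodes the repressor REV-ERBalpha, was higher (14.5 against 4.58 CPM, log2 difference 1.64, limma adjusted p = 0.00231), and Arntl, which encodes BMAL1, was lower (3.33 against 18.1 CPM, -2.33, limma adjusted p = 1.14e-05). Npas2 was listed at 0 in 4 of 5 FSH livers and at 4.64 to 7.14 CPM in saline. Per3 (2.61), Tef (1.08), Nr1d2 (2.06) and Per2 (0.75) were also called higher, and Cry1 (-1.31), Nfil3 (-1.68), Clock (-0.99) and Rora (-0.28) lower, in log2 difference by limma. The call of Rora was lost in 10 of 11 fits without 1 liver, with a limma adjusted p up to 0.121. The part of these genes in the differences of Cdkn1a and Wee1 was not tested.

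All 12 glucocorticoid-induced genes had negative differences, with a median of -0.88, and 4 were called (33.3%, beside 10.6% of all genes called and 4.41% called lower). Zbtb16 was 2.80 to 3.88 CPM with FSH and 9.17 to 39.8 CPM with saline (log2 difference -2.62, limma adjusted p = 8.5e-05), and Klf9 (-1.03, limma adjusted p = 0.00226), Igfbp1 (-1.50, limma adjusted p = 0.0093) and Mt2 (-2.29, limma adjusted p = 0.0382) were lower too. The count was 8 without saline liver 6, and the call of Mt2 was lost in 7 of 11 fits without 1 liver. Their part in the differences of Cdkn1a was likewise not tested.

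The tissue was checked against markers of its cell types. The summed level of 8 hepatocyte markers was 103431 to 122529 CPM with FSH and 98155 to 124610 CPM with saline, and that of 7 Kupffer and macrophage markers 110 to 296 and 179 to 357 CPM. Of these lists 2 hepatocyte markers (1 higher and 1 lower) and 1 macrophage marker (Cd68, lower) were called. Of 5 cholangiocyte markers 1 was called (Krt7, higher), and of all genes 10.6%. None was called by limma among the markers tested of endothelial (6), stellate (7), lymphocyte (5 of 7), neutrophil (1 of 4), acinar (1 of 5) and erythroid cells (5). An unadjusted limma p under 0.05 was found for 3196 of 12733 genes in all. Among the markers it was found for 4 of 7 Kupffer and macrophage, 2 of 8 hepatocyte and 2 of 5 cholangiocyte markers. It was also found for 1 of 6 endothelial and 1 of 7 stellate markers. Adipocyte markers summed to at most 0.129 CPM, with 2 of 4 at 0 in every library. In whole liver, fewer cells of a type and less RNA per cell cannot be told apart.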

How the data were processed

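Per the labels, RNA of 11 livers was made into NEBNext Ultra libraries, and the study's methods give reads of 100 bp. The authors deposited 1 table of CPM values over 36788 Ensembl identifiers, without a filter or scaling between libraries. The submitters' processing notes name FastQC 0.11.2, Trim Galore 0.3.3, cutadapt, STAR, RSEM and mm10. RSEM gives estimated counts, whereas the deposited values are whole multiples of 1 read, so its part is not known. The counting step, annotation and use of strand are not given in the sources used here, so genes overlapping on the opposite strand may share reads (Cdkn1a, Gadd45a, Wee1, Ccnd1 and Mad2l2 overlap such a gene in GENCODE M21). Whole reads were recovered from the CPM steps (100.0% of values within 0.1 read) and gave the depths in the report.

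Symbols were assigned to 35555 of 36788 identifiers. Where the mean reached 0.5 CPM, a gene entered limma 3.58.1 (eBayes with trend, R 4.3.3) as log2(CPM + 0.5) and Benjamini-Hochberg adjustment over 12733 genes; fold changes on this scale understate the change of low genes. The procedure was tested on simulated data. Those data had the same spread setting for every gene, so genes that vary widely between livers, such as Gadd45g, were not covered. No 2 libraries of the same group were near duplicates. Correlations used exact two-sided permutation tests (scipy 1.17.1) within the 6 saline livers. Nothing in the labels says more of how the mice were housed or sampled, so p-values measure the spread between these livers.

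The 10 genes and all lists were chosen with earlier results of these data known. Genes named were the 10, Trp53, from each list the called genes (at most 8 per direction, or the 3 with the smallest p where none was called), and the 5 highest and 3 lowest correlations with Cdkn1a. The 8 classical p53 targets, the overlapping genes, genes below the filter and 2 cell type markers are named outside this rule. Alternatives were pseudocounts of 0.1 and 1 CPM, a mean of at least 2 CPM, no filter, TMM and median-of-ratios scaling, a replicate block, edgeR 4.0.16 on the recovered reads, and leaving out each liver.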

Additional observations from a re-analysis of the deposited data

Results flagged for a closer look

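Of 106 groups of 5 or 6 livers examined for a single liver far from the others, 3 stood out (2.83%), while chance gives about 1 in 20. Ccnd1 was 57.4 CPM in saline liver 6, above the other saline livers by 0.701 of the group's range. Lpin1 was 229 CPM in FSH liver 6, a gap of 0.741 of the range of the FSH livers. Npas2 was 0.1005 CPM (2 reads) in FSH liver 1 and at 0 in the other FSH livers, so the distance of FSH liver 1 from the other FSH livers rests on 2 reads.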

How the results depend on the processing

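No value changed direction among called results under any alternative. Cdkn1a, Mad2l2, Gadd45b, Ccnd1 and Trp53inp1 kept their calls under 8 other settings and without any 1 of 11 livers. Wee1 passed the threshold with a pseudocount of 1 CPM (limma adjusted p 0.0491), TMM or median-of-ratios scaling (both 0.0458). For Trp53 and the genes named from the lists by rule, 558 of 665 recomputed values kept their side of the threshold, 102 lost a call and 5 gained one. Without a filter the called genes were 5 for the other p53 targets and 0 for p53 and its regulators. They were 0 for the other CDK inhibitors, 0 for the S and G2/M genes and 1 for the GADD45 partners. That setting tests more genes and also refits the limma trend over them, and which of these lowered the counts was not tested. TMM scaling gave 2 for p53 and its regulators, 0 for the CDK inhibitors, 1 for G1/S and 1 for the GADD45 partners, median-of-ratios scaling 0, 1 and 1 for the last 3 lists, and edgeR on recovered reads 2 for p53 and its regulators, 1 for G1/S and 1 for the GADD45 partners, the cause of which was not tested. Leaving out 1 liver, the counts ranged from 803 (without FSH liver 1) to 1659 for all genes, 5 to 7 for the 10 genes, 4 to 9 for the other p53 targets, 0 to 2 for p53 and its regulators, 0 to 1 for the CDK inhibitors, 0 to 1 for G1/S, 0 to 4 for S and G2/M, 1 to 4 for the MAD2L2 partners, 1 to 2 for the GADD45 partners, 11 to 12 for the clock genes and 3 to 8 for the glucocorticoid-induced genes. With 1 saline liver left out, 0 relations with Cdkn1a passed. With 5 livers at least 4 of the 9 must reach the smallest exact permutation p to pass, so this count shows little about their stability.

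With the mouse number as a replicate block, 1210 genes were called beside 1350, 6 of the 10 genes, 0 of p53 and its regulators, 0 of the CDK inhibitors and 6 glucocorticoid-induced genes; Gadd45g then passed (-1.61, limma adjusted p 0.0188). The deviations of same-numbered livers correlated at 0.065, 0.356, 0.019, 0.137 and -0.066, so the numbers were not taken to pair the mice. Depth limits the low genes, such as Wee1 with 10 reads in 1 saline liver, and the mitotic genes under the filter.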
